A study of Danio rerio with 3 samples.

Results

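The oxidative phosphorylation genes were taken as every row of the 3 count matrices whose gene symbol started with mt-, NC_002333, nduf, uqcr, sdh, cox4, cox5, cox6, cox7, cox8 or atp5. The rule found 139 of 32521 genes. Of these, 37 lie on the mitochondrial genome and 102 in the nucleus, and both sets were kept apart throughout. The mitochondrial rows were 13 protein-coding mRNAs and 24 rows named NC_002333 with a running number. The tables used here give no gene name or role for the NC_002333 rows, which entered by the rule alone. They were assigned to no complex and are not claimed as oxidative phosphorylation subunits. The mitochondrial sum includes them, whereas the mRNA sum does not. Grouped by symbol alone, the nuclear rows were 41 of complex I, 5 of complex II, 8 of complex III, 18 of complex IV, 19 of complex V and 11 assembly factors of complexes I and II. This grouping puts ndufa4 and its relatives under complex I, and the inhibitor genes atp5if1a and atp5if1b under complex V.

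Oxidative phosphorylation takes place in the inner mitochondrial membrane. Complexes I and II (NADH dehydrogenase and succinate dehydrogenase) feed electrons through complex III (cytochrome bc1) to complex IV (cytochrome c oxidase), which passes them to oxygen, and complex V (ATP synthase) uses the proton gradient so made. All subunits of complex II are nuclear, whereas the other complexes need subunits from both genomes. Heart and slow muscle, active neurons and ion-pumping cells of gill and skin are known for their dense mitochondria.

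The 3 libraries were droplet 3′ single-cell RNA-seq profiles of zebrafish larvae with a spinal cord lesion. Larvae were lesioned at 3 days post-fertilisation (dpf) and collected 1 day later at 4 dpf, 50 larvae per sample, and viable cells were sorted from the trunk tissue around the lesion site, so that skin, muscle and blood were profiled along with the spinal cord. The gControl larvae had received a control gRNA. The gSema4ab larvae had received highly active synthetic gRNAs (haCRs) against sema4ab, a semaphorin gene, and are mosaic somatic mutants, so not every cell carries the same lesion of the gene. The paper found no intact target sequence among the few gSema4ab reads that covered it, unlike in gControl. All groups carried the spinal lesion.

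The gControl sample was 1 library and the gSema4ab sample was 1 pool run as 2 technical repeats (repeat 1 and repeat 2). Each condition was therefore 1 sample, no difference between conditions could be tested, and no p-value is given. A unique molecular identifier (UMI) marks 1 captured RNA molecule. Levels are given as a percentage of all UMIs or as counts per 1000000 UMIs (CPM), and intervals are exact 95% intervals that cover counting error only. In all, 36266 of 42945 barcodes were kept, with 113103822 to 122481867 UMIs and a median of 6463 to 7184 UMIs per cell in the libraries. The cells fell into 45 clusters, of which 36 were named from markers and formed 22 classes that held 85.7% of cells. Libraries shared 46 to 67 barcodes pairwise. sema4ab itself stood at 51.2 CPM in gControl and at 29.2 and 30.7 CPM in the gSema4ab repeats. Globin genes took 3.87% of UMIs in gControl and 5.84% and 6.47% in the repeats.

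All 139 rows were detected in every library. At least 20 UMIs in each library were found for 100 of the 102 nuclear genes and for 23 of the 37 mitochondrial rows, including the 13 mRNAs. The sparsest nuclear rows were ndufa9b with 14, 2 and 4 UMIs and ndufa4l2b with 19, 14 and 18 UMIs in gControl, repeat 1 and repeat 2. Over all cells, the nuclear genes made up 1.81% of UMIs and the mitochondrial rows 2.04%.

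Cell classes differed in both sums, and the skin ionocytes stood first. Ionocytes are epidermal cells that pump ions between the water and the body. Here the class was named from its markers and consisted of 422 cells in 2 clusters, one led by the Na+/K+-ATPase gene atp1a1a.2 and the Na-Cl cotransporter gene slc12a10.2, the other by foxi3a, a transcription factor of ionocytes, and the ammonia channel gene rhcgb. The nuclear genes took 6.71%, 9.05% and 8.93% of ionocyte UMIs in gControl, repeat 1 and repeat 2, and 8.21% over the libraries. Slow muscle followed with 4.37%, 6.45% and 5.52%. The libraries' ranges of both classes did not overlap, nor did slow muscle overlap with the class ranked next.

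Skeletal muscle was the third class by the nuclear sum, at 3.09%, 3.59% and 3.42%. Macrophages and microglia came next at 2.97%, 3.29% and 3.24%, and these neighbours overlapped. Neutrophils and myoblasts, both at 2.24%, lay below them and overlapped with each other but not with their outer neighbours.

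From ependymo-radial glia at 1.76% downward every class overlapped with the next, through neurons at 1.59%, red blood cells at 1.52%, superficial epidermis at 1.42%, endothelium at 1.39%, oligodendrocytes at 1.25% and fibroblasts at 0.95%, to tenocytes with 0.667%, 0.842% and 0.776%. The median class had 1.45% and the highest class was 11.1-fold above the lowest. The neuron value leaves out an unnamed cluster of 2100 cells with few UMIs and all 9 neuron markers. Its nuclear genes had 4965 CPM in gControl and a mean of 8614 CPM in the gSema4ab repeats.

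**Figure D1:**
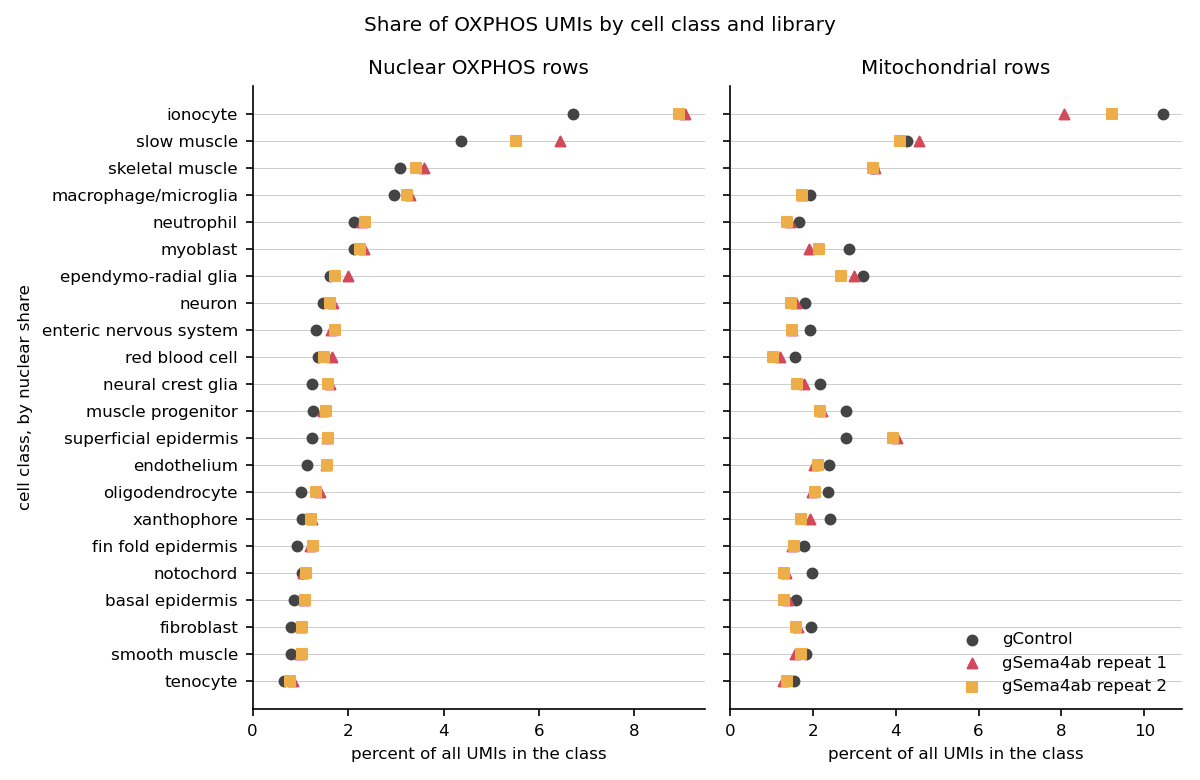
Percentage of all UMIs taken by the 102 nuclear genes and by the 37 mitochondrial rows in each of the 22 marker-defined classes, on axes that start at 0, with 1 point per library. Ionocytes and slow muscle lie above the other classes in both panels, and from ependymo-radial glia downward the nuclear ranges of neighbouring classes overlap.

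The mitochondrial rows gave a similar top and a different middle. They took 10.4%, 8.05% and 9.23% of ionocyte UMIs, 4.27%, 4.56% and 4.11% in slow muscle and 3.44%, 3.50% and 3.46% in skeletal muscle. Superficial epidermis was next at 2.81%, 4.04% and 3.94%, although it was only the 13th class by the nuclear genes. Red blood cells were last at 1.58%, 1.198% and 1.03%, and the highest class was 7.44-fold above the lowest. From skeletal muscle downward, each class overlapped with the next in the mitochondrial order. Over the 22 classes, which share libraries and differ in depth, the correlation between both sums was r = 0.90 with a rank correlation of 0.52. Over the 45 clusters it was r = 0.63 with a rank correlation of 0.44. Both are descriptions, and in both the rank correlation was the lower value. Over the classes, ionocytes and slow muscle stood above all others in both sums, and r was not taken without them.

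The study kept barcodes with under 20% mitochondrial RNA, which was applied here over the mt- symbols, and this filter acts on the measured rows themselves. When the barcodes were clustered without it, it would have removed 168 of 596 ionocytes (28.2%, interval 24.6 to 31.99), 22 of 143 slow muscle cells (15.4%), 31 of 373 skeletal muscle cells (8.31%) and 130 of 3235 cells of superficial epidermis (4.02%). It would have removed 0 of 2160 neurons and 684 of all 37179 cells (1.84%). The classes with the highest mitochondrial levels were thus the ones the filter trimmed most. It also trimmed the libraries unequally. In ionocytes it would have removed 29 of 164 cells in gControl, 77 of 215 in repeat 1 and 62 of 217 in repeat 2. In superficial epidermis the counts were 13 of 1274, 56 of 964 and 61 of 997. The mitochondrial and nuclear levels of these classes by library come from unequally trimmed cells. Without the filter ionocytes had 14.0% mitochondrial UMIs and the fold from the highest to the lowest class was 11.2 for the mitochondrial rows and 9.48 for the nuclear genes.

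With the NC_002333 rows counted, the 2 ionocyte clusters differed in which genome's transcripts were higher. Their mitochondrial shares were measured after the filter. For the class as a whole, nuclear UMIs per mitochondrial mRNA UMI were 1.02, 1.48 and 1.29 in gControl, repeat 1 and repeat 2. On the mRNAs alone the nuclear side was thus higher in the class, and the contrast between its clusters is not given. In the clustering without the filter, it would have removed 77 of 100, 90 of 336 and 1 of 160 cells of the ionocyte clusters. The atp1a1a.2 cluster (261 cells) had 10.16% mitochondrial UMIs and 6.48% nuclear ones, with 5.16%, 7.22% and 7.60% nuclear in the libraries. The foxi3a cluster (161 cells) had 8.30% mitochondrial and 10.1% nuclear UMIs, with 9.47%, 10.7% and 10.0% nuclear. The nuclear ranges of these clusters did not overlap. An unnamed cluster led by cdh17 and the Na+/K+-ATPase gene atp1a1a.4 (208 cells, of which 128 came from repeat 2) was close to them, with 8.09% mitochondrial and 7.35% nuclear UMIs. Another unnamed cluster (321 cells, median of 1691 UMIs per cell) had 11.3% mitochondrial but only 0.602% nuclear UMIs. It carried the notochord markers shha, gas2b, tbxta, col8a1a and epyc, but the values of the notochord class leave it out.

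Red blood cells were also not uniform. The cluster led by slc4a1a, an anion exchanger of red cells, and by cpox and hmbsb, genes of haem synthesis, had 2.23% nuclear UMIs at a median of 23369 UMIs per cell. The other named red blood cell clusters, with globin genes among their leading genes, had 0.674% at a median of 4073 UMIs and 0.490% at a median of 9409 UMIs. Depth per cell was highest in the slc4a1a cluster, and globin UMIs count in every total. The part of either in the difference was not tested.

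Most single genes were highest in the same class as the nuclear sum. Among the 88 nuclear genes with at least 50 CPM and 20 UMIs in their highest class, 79 were highest in ionocytes, 3 in slow muscle and 1 each in macrophages and microglia, neutrophils, neurons, myoblasts, oligodendrocytes and superficial epidermis. Since this minimum was set on the highest class, a gene could enter through ionocytes alone, as did cox6a2 (63.5 CPM, against 12.1 CPM in neutrophils). The share of all genes that were highest in ionocytes is not given, so the count of 79 has no background beside it. Slow muscle was second for 76 of the 79, and for 48 of the 79 the ionocyte range over libraries lay wholly above that of the second class. The median fold from highest to lowest class was 10.4 over the 88 genes, after 5 CPM had been added to both levels. Because 3′ UMI counts record 1 tag per molecule, CPM can be set side by side between genes as molecules captured.

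Among the rows grouped under complex I the most abundant was ndufa4l, a relative of NDUFA4, a protein first assigned to complex I and later found with complex IV. It had 481, 562 and 541 CPM over all cells in gControl, repeat 1 and repeat 2, 2700 CPM in ionocytes and 247 CPM in neurons, its lowest class. The accessory subunit genes ndufb8 (209, 241 and 241 CPM) and ndufa6 (183, 208 and 218 CPM) followed, with 1167 and 658 CPM in ionocytes. All 3 genes were above gControl in both repeats over all cells.

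Complex II was the least abundant complex. sdhdb, which encodes a membrane anchor, had 84.5, 97.6 and 91.8 CPM, the other anchor gene sdhc had 73.5, 82.9 and 79.9 CPM, and the iron-sulphur subunit gene sdhb had 59.8, 75.2 and 75.3 CPM. All were highest in ionocytes, at 396, 324 and 324 CPM.

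In complex III, uqcrh, the hinge protein gene, had 272, 316 and 311 CPM and reached 1029 CPM in ionocytes. The small subunit gene uqcr10 had 207, 261 and 260 CPM. uqcrq, another small subunit gene, had 178, 255 and 270 CPM, reached 1104 CPM in ionocytes and was lowest in tenocytes at 75.4 CPM.

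Complex IV was led by cox6b2 with 702, 752 and 741 CPM, a form of the subunit that faces the intermembrane space. cox4i1, the general form of the largest nuclear subunit, had 625, 678 and 663 CPM, and cox8a had 534, 601 and 601 CPM. These genes stood at 2917, 2345 and 2931 CPM in ionocytes.

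Complex V held the most abundant of all the nuclear genes, atp5mc3b, a gene of the membrane c-ring, with 1127, 1253 and 1229 CPM. In ionocytes it had 5046, 5979 and 6094 CPM, against 389 CPM in tenocytes. atp5f1b, the catalytic beta subunit gene, had 552, 653 and 599 CPM and ranged from 151 CPM in tenocytes to 3345 CPM in ionocytes. atp5l, a subunit gene of the membrane part, had 487, 598 and 611 CPM.

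Assembly factors, which help to build complexes but are not part of them, were low. ndufaf3 had 37.7, 45.1 and 44.2 CPM and was highest in myoblasts at 73.9 CPM. sdhaf2, which helps to load the flavin cofactor of complex II, had 25.5, 31.98 and 29.9 CPM. ndufaf2 had 45.3, 31.3 and 29.8 CPM, and it was highest in superficial epidermis with 247, 181 and 180 CPM, against 56.8 CPM in ionocytes.

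The shares of complexes I, III, IV and V among the nuclear UMIs varied less between classes than their sum did. Of the nuclear UMIs, complex V took a median of 39.2% over the classes (33.3% in oligodendrocytes to 42.1% in myoblasts), complex I 26.4% (22.5% in neutrophils to 31.0% in tenocytes) and complex IV 25.5% (23.1% to 28.7%). Complex III took 6.48% (5.87% to 7.67%), complex II 1.62% (1.36% in the notochord to 2.57% in tenocytes) and the assembly factors 1.23%, with the lowest share, 0.528%, in ionocytes and the highest, 2.69%, in superficial epidermis. Of the mitochondrial mRNAs, those of complex IV made up a median of 59.1% (51.8% to 65.8%), followed by complex V with 13.9% (9.28% in tenocytes to 19.3% in ependymo-radial glia), complex III with 13.8% (11.7% to 17.6%) and complex I with 13.3% (11.3% to 16.4%).

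Several genes left this common pattern, and most of them have a related gene for the same subunit. The gene with the largest fold between classes was cox5b2, a gene of complex IV. It had 293, 487 and 521 CPM in ionocytes, 81.3 CPM in slow muscle and 61.5 CPM in skeletal muscle. In endothelium 0 of 1554387 UMIs were found, which allows up to 1.93 CPM, so that ionocytes were at least 224-fold higher. Over the 22 classes its median level was 1.02 CPM. It was the only cox5b row that the rule found. A gene for the same subunit under another symbol would not be counted, so these values describe cox5b2 alone.

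ndufa4 was highest in neurons. It had 371, 405 and 380 CPM in neurons, above slow muscle with 132, 292 and 141 CPM and ionocytes with 116, 177 and 135 CPM, and 0.78 CPM in myoblasts. In neurons it gave 60.8% (interval 59.7 to 61.9) of the UMIs of ndufa4, ndufa4l, ndufa4l2a and ndufa4l2b together, with 61.8%, 60.1% and 60.5% in the libraries. In slow muscle the share was 15.7%, in neutrophils 11.03%, in macrophages and microglia 6.86% and in myoblasts 0.131%. Neurons were also the class where ndufa4l was lowest.

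cox6b1 was highest in macrophages and microglia with 240, 254 and 247 CPM. Ionocytes were next at 113, 326 and 251 CPM, and their range overlapped with that of macrophages. As a share of cox6b1 and cox6b2 together, however, it was highest in neurons at 25.3%, followed by neutrophils at 20.1%, macrophages and microglia at 18.8% and the enteric nervous system at 11.1%. In skeletal muscle cox6b1 gave 0.377% of this pair.

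cox4i2, the form of the largest nuclear complex IV subunit that is tied to low oxygen in mammals, was found in other classes again. It was highest in oligodendrocytes with 102, 166 and 188 CPM, from 176 UMIs in all, then in smooth muscle with 88.8, 85.6 and 90.5 CPM, in xanthophores at 85.6 CPM and in ependymo-radial glia at 81.8 CPM. Its share of the cox4 genes was 27.9% in oligodendrocytes, 17.6% in xanthophores, 15.3% in smooth muscle and 14.2% in ependymo-radial glia. In ionocytes only 2 of 12696 cox4 UMIs came from cox4i2, and over all cells its share was 1.58%.

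The other genes with a large fold favoured muscle or ionocytes. ndufv3, a complex I subunit gene, was highest in slow muscle with 299, 767 and 822 CPM and next in ionocytes with 270, 432 and 431 CPM, where both ranges overlapped. cox7a1, known as the heart and muscle form in mammals, was highest in slow muscle at 111, 174 and 148 CPM, followed by skeletal muscle at 49.9, 57.1 and 90.8 CPM. It never gave more than 10.1% of the UMIs of cox7a1, cox7a2a and cox7a2l in a class.

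cox5ab gave 51.9% of cox5aa and cox5ab UMIs in ionocytes, at 1510 CPM, and 25.9% in skeletal muscle. atp5mc1 reached 2759 CPM in ionocytes and 96.7 CPM in smooth muscle, and its share of the c-ring genes ran from 11.8% in smooth muscle to 31.97% in neutrophils. cox7b, cox7a2a and atp5f1c, the gamma subunit gene of complex V, were highest in ionocytes at 2051, 2083 and 1175 CPM.

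**Figure D2:**
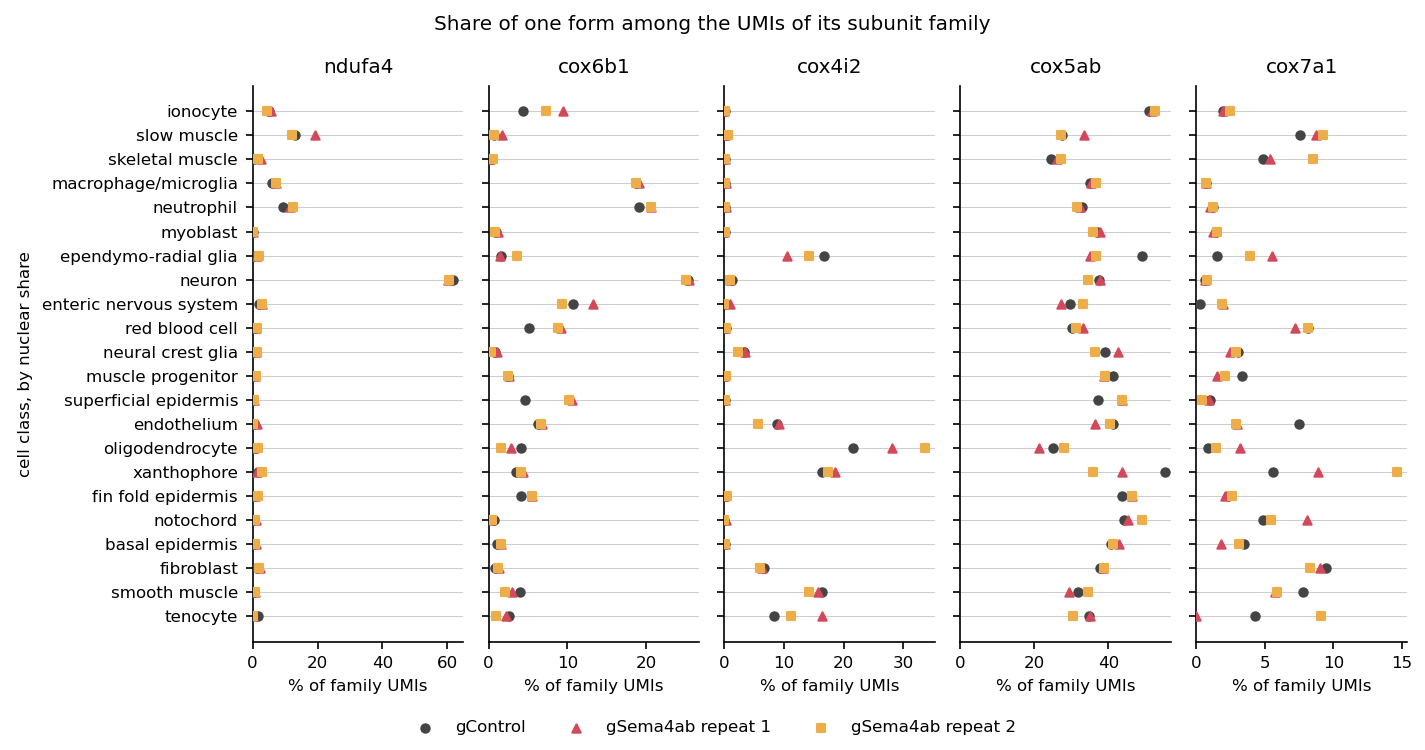
Share of related subunit genes, as a percentage of the UMIs of the genes with the same symbol stem, in each class, with 1 point per library. ndufa4 reached 60.8% in neurons, cox6b1 25.3% in neurons, cox4i2 27.9% in oligodendrocytes and cox5ab 51.9% in ionocytes.

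Next, gSema4ab was set against gControl. Ratios are the mean of both repeats over gControl on the log2 scale, scaled by total UMIs. Their counting intervals were taken on the pooled UMIs of both repeats, so they need not be centred on the ratio. The nuclear genes as a sum were higher in gSema4ab in both repeats: 16115 CPM in gControl, 19336 CPM in repeat 1 and 18970 CPM in repeat 2, a log2 ratio of 0.25 (counting interval 0.247 to 0.252), while repeat 2 stood at -0.03 against repeat 1. Over the 2696 genes of the whole table that averaged 50 CPM or more with 20 UMIs or more, the median log2 ratio was -0.05. Scaling by TMM factors (trimmed mean of M-values) shifted this median by 0.21 to 0.16 and put the nuclear sum at 0.46.

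By role, the sums of all complexes were higher by similar amounts. Complex I had a log2 ratio of 0.24, complex II of 0.26, complex III of 0.30, complex IV of 0.24 and complex V of 0.25, while the assembly factors stood at 0.07. A gene was called where its log2 ratio was past 0.5 in both repeats with the same sign. Of the 75 nuclear genes tested by this rule 9 were called higher and 0 lower, beside 3.12% of all genes called higher and 9.27% called lower. With TMM scaling 21 of the 75 were called higher. Over all genes, TMM changed the calls from 84 higher and 250 lower (25.1% higher) to 241 higher and 88 lower (73.3% higher). Of the 75 genes 72 were above 0 in both repeats, beside 41.0% of all genes, and their median log2 ratio was 0.22.

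The called genes belonged to complexes I, III, IV and V. atp5md, a small membrane subunit gene of complex V, had 85.9, 188 and 179 CPM in gControl, repeat 1 and repeat 2 (log2 ratio 1.09, counting interval 1.06 to 1.12). atp5mea, a gene of subunit e of the same complex, had 47.3, 88.9 and 91.6 CPM (0.93, interval 0.89 to 0.97). cox7c, of complex IV, had 207, 366 and 393 CPM (0.87, interval 0.85 to 0.90). In each of these genes both repeats were close to one another and well above gControl.

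The next genes, all with both repeats above gControl, were atp5f1e, the epsilon subunit gene of complex V, with 218, 359 and 385 CPM (log2 ratio 0.77), and the complex I accessory subunit genes ndufa1 with 78.5, 138 and 138 CPM (0.81), ndufa2 with 77.0, 117 and 123 CPM (0.64) and ndufa3 with 48.9, 76.0 and 75.8 CPM (0.64). The last called genes were ndufa7 with 40.1, 60.3 and 60.7 CPM (0.59) and uqcrq (0.56). Among the tested genes only ndufb2, an accessory subunit gene of complex I, with 108, 102 and 101 CPM (-0.08), was below gControl in both repeats, and cox7a2l, a relative of COX7A2 that takes part in supercomplexes, was mixed with 107, 112 and 98.6 CPM (-0.03), as was atp5if1b, an ATP synthase inhibitor gene, with 245, 253 and 244 CPM (0.02). With TMM scaling all 75 genes were above 0 in both repeats, these genes included. atp5mc3b, cox6b2, cox4i1 and ndufa4l, among the most abundant genes of complexes I, IV and V, were higher in both repeats but under the limit. ndufaf2, below the minimum of 50 CPM, had a log2 ratio of -0.57.

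**Figure D3:**
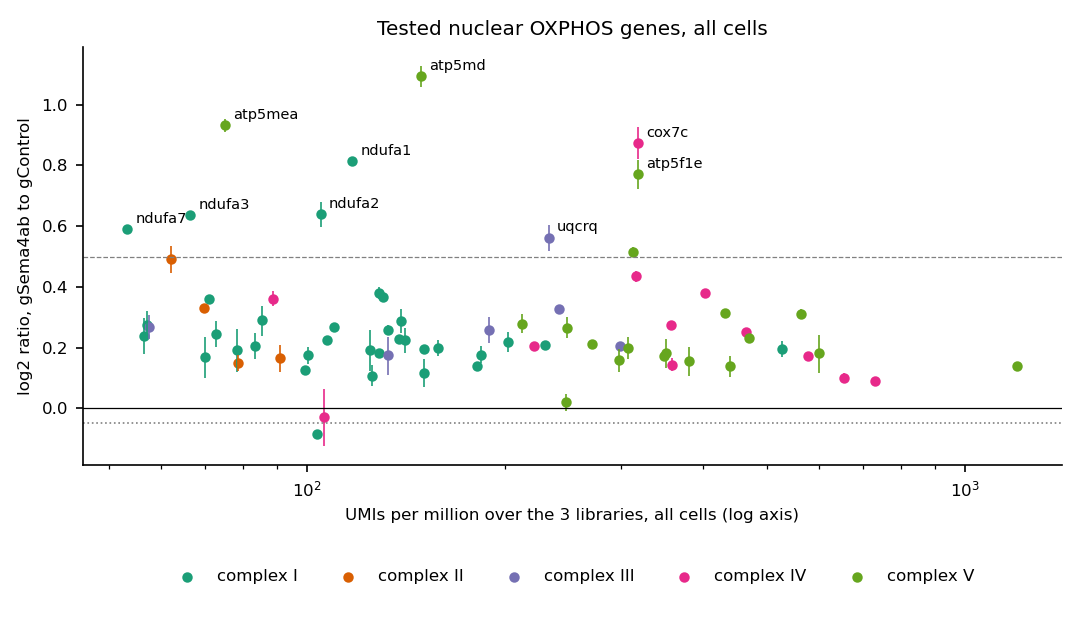
Log2 ratio of gSema4ab to gControl for each of the 75 tested nuclear genes by complex, against the mean level in CPM on a log axis, with bars that join both repeats. The dashed line is the limit of 0.5, past which 9 genes lie in both repeats, and the dotted line is the median of all tested genes at -0.05; with TMM scaling this median moves to 0.16.

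Over all cells, such sums also mix classes whose cell numbers differed between libraries (superficial epidermis had 1203, 905 and 861 cells, for example), so the same ratios were taken within classes. The nuclear sum was above gControl in both repeats in all 22 classes, and remained so in all 22 under TMM, non-mitochondrial and globin-free scaling. The ratio ran from 0.08 in the notochord to 0.45 in slow muscle, with a median of 0.30. In ionocytes it was 0.42, but their 2 clusters differed. The atp1a1a.2 cluster stood at 0.52, with 93, 80 and 88 cells in gControl, repeat 1 and repeat 2. The foxi3a cluster stood at 0.13, with 41, 57 and 63 cells. The part of these cell numbers in the class ratio was not tested. The ratio was 0.44 in endothelium, 0.33 in fibroblasts, 0.35 in superficial epidermis and 0.17 in neurons. In macrophages and microglia it was 0.14 and in ependymo-radial glia 0.20. An unnamed cluster with all 9 neuron markers (2100 cells, median of 1590.5 UMIs per cell) lay outside the neuron class. Its ratio was 0.79, with 0.87 and 0.72 in the repeats. The unnamed cluster with notochord markers lay outside the notochord class and stood at 0.99, with 0.51 and 1.34 in the repeats. Among the 45 clusters, 41 were above 0 in both repeats. The exceptions below 0 in both were red blood cell clusters at -0.14 and -0.15, whose ratio in the third red blood cell cluster was 0.32.

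The number of nuclear genes called varied between classes. In ionocytes 17 of 86 were called higher beside 6.89% of all genes, in endothelium 23 of 72 beside 7.65%, in oligodendrocytes 20 of 71 beside 7.67%, in neural crest glia 17 of 72 beside 6.43% and in slow muscle 13 of 82 beside 7.4%. Tenocytes had 12 of 58 beside 6.97%, the enteric nervous system 12 of 73 beside 6.58%, fin fold epidermis 11 of 61 beside 5.16%, basal epidermis 9 of 57 beside 6.08%, smooth muscle 8 of 59 beside 3.83% and xanthophores 6 of 66 beside 5.78%. Red blood cells had 6 of 68 beside 1.67%, myoblasts 6 of 76 beside 1.57%, muscle progenitors 6 of 70 beside 2.64%, neutrophils 5 of 79 beside 1.92% and skeletal muscle 4 of 78 beside 3.08%. In fibroblasts the count was 8 of 56 beside 3.21%, in macrophages and microglia 5 of 77 beside 2.23% and in neurons 4 of 76 beside 3.29%. In ependymo-radial glia 5 of 73 were called beside 8.66%, a share below that background. In superficial epidermis, where many genes of all kinds were called, the count was 22 of 70 beside 23.2%. No nuclear gene was called lower in any class but the notochord, where ndufb2 and cox7a2l were (beside 17.5% of all genes called lower), and where atp5f1e and ndufa1 were called higher (beside 5.67%). Over all cells 9.27% of all genes were called lower. That share is not given for the other classes, so the absence of lower calls there has no background beside it.

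The same few genes led in most classes. Of 22 classes, atp5f1e was called higher in 21, atp5md and cox7c in 20 each and ndufa1 in 19, and atp5mea in 15 of the 20 where it was tested. The classes share the same libraries, so these counts are not independent. The ratios over all cells also include the cells of these classes. The share of all genes called higher in as many classes is not given, so these counts have no background beside them. In macrophages and microglia atp5md had 184, 374 and 360 CPM, in ionocytes 376, 983 and 898 CPM and in neurons 79.1, 150 and 134 CPM. cox7c had 439, 710 and 775 CPM in macrophages and microglia, 878, 1755 and 1889 CPM in ionocytes and 215, 344 and 352 CPM in neurons. In each of these classes both repeats were above gControl for both genes.

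The ratio of cox6b1 was largest in ionocytes and superficial epidermis. In ionocytes it had 113, 326 and 251 CPM (log2 ratio 1.36) and in superficial epidermis 31.1, 73.8 and 71.0 CPM (1.22), while in macrophages and microglia, its highest class, the levels were 240, 254 and 247 CPM. ndufv3 had a log2 ratio of 1.41 in slow muscle, from 35 gControl cells and 44 cells in each repeat. The difference of such ratios between classes was not tested.

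**Figure D4:**
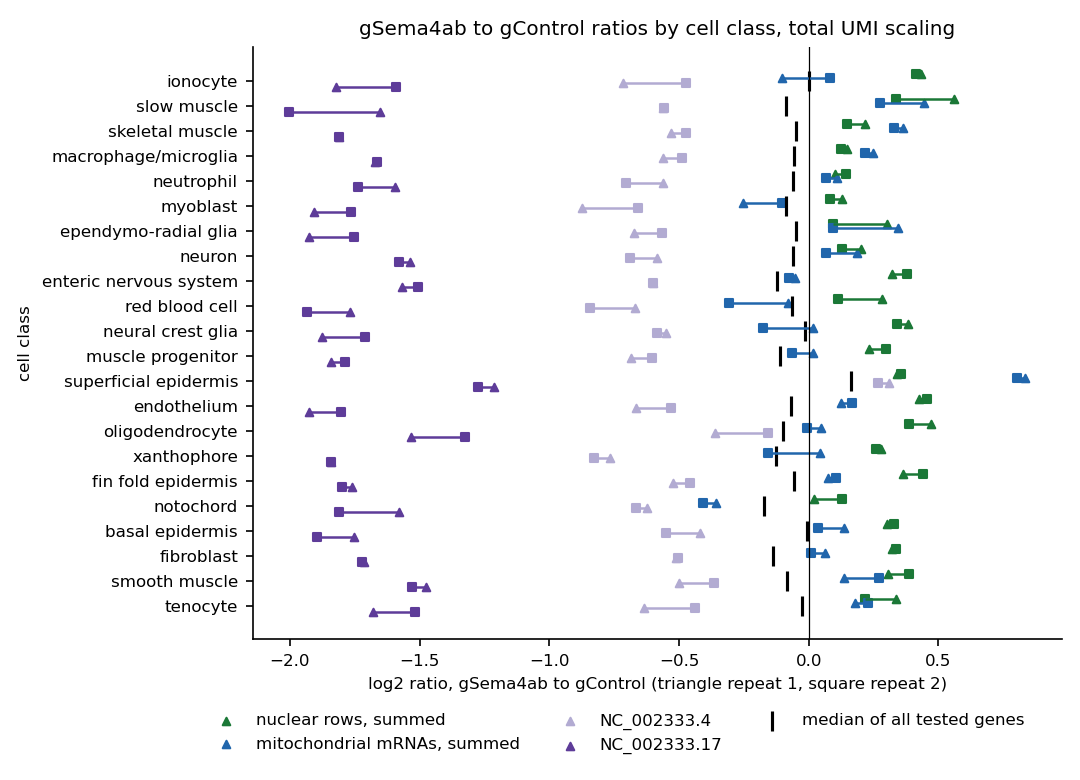
Log2 ratio of gSema4ab to gControl by class for the nuclear sum, the mitochondrial mRNA sum and the 2 abundant NC_002333 rows, with a triangle for repeat 1, a square for repeat 2 and a black tick for the median of all tested genes in that class. The nuclear sum lies above 0 in all 22 classes and NC_002333.17 below 0 in all 22, under TMM scaling too; the sign of the mitochondrial mRNA sum varies between classes, and 13 classes are above 0 in both repeats (20 with TMM).

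The mitochondrial rows did not move as one. Their sum was lower in gSema4ab, with 2.22%, 1.95% and 1.94% of UMIs, a log2 ratio of -0.19 that became 0.02 with TMM scaling. The mRNAs alone were higher, with 1.26%, 1.39% and 1.37% of UMIs (log2 ratio 0.13, and 0.35 with TMM). This left the NC_002333 rows, of which 2 held nearly all UMIs.

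NC_002333.17 had 3102, 966 and 975 CPM, a log2 ratio of -1.68 (counting interval -1.684 to -1.669; -1.46 with TMM). NC_002333.4 had 6517, 4653 and 4734 CPM, a log2 ratio of -0.47 (-0.26 with TMM). The repeats were close to each other and below gControl for both rows. The share of NC_002333.17 among mitochondrial UMIs was 14.0%, 4.96% and 5.02%, that of NC_002333.4 was 29.4%, 23.9% and 24.4%, and that of the 13 mRNAs was 56.6%, 71.1% and 70.6%. The other 22 rows together had 0.030%, 0.037% and 0.047%.

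NC_002333.17 was lower in both repeats in all 22 classes, with log2 ratios from -1.86 in endothelium to -1.24 in superficial epidermis, and in all 45 clusters. In ionocytes it had 13073, 3694 and 4345 CPM. NC_002333.4 was lower in 21 of 22 classes (20 of 22 with TMM), the exception above gControl in both repeats being superficial epidermis. Of the rows with fewer UMIs, 8 more had at least 20 UMIs in every library. NC_002333.16 had 106, 181 and 364 UMIs and differed between the repeats, NC_002333.9 had 148, 62 and 93, and NC_002333.10 had 206, 229 and 209. The remaining NC_002333.2, NC_002333.3, NC_002333.12, NC_002333.14 and NC_002333.20 had 24 to 58 UMIs per library. The NC_002333 rows lack the mt- prefix, so the filter as applied here did not count their UMIs.

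Among the mitochondrial mRNAs, those of complex IV were the most abundant. mt-co2 had 3630, 3797 and 3663 CPM (log2 ratio 0.04), mt-co3 had 2224, 2575 and 2591 CPM (0.22) and mt-co1 had 1561, 1607 and 1575 CPM (0.03). The complex III mRNA mt-cyb had 1983, 1888 and 1908 CPM (-0.06, and 0.15 with TMM). Of these, mt-co3 was the one whose repeats lay furthest from gControl.

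The ATP synthase mRNA mt-atp6 had 1535, 2028 and 2021 CPM (0.40) and mt-atp8, which overlaps it on 1 transcript, 5.12, 7.04 and 5.90 CPM (0.34), so the split between both is uncertain. Of the complex I mRNAs, mt-nd1 had 635, 811 and 827 CPM (0.37), mt-nd2 356, 423 and 415 CPM (0.23), mt-nd4 363, 434 and 428 CPM (0.25) and mt-nd4l, which overlaps mt-nd4, 15.9, 15.1 and 13.2 CPM (-0.17, and 0.04 with TMM). mt-nd3 had 54.7, 102 and 108 CPM (0.94) and was the only one of the 10 tested mRNAs past the limit of 0.5. mt-nd5 had 180, 150 and 147 CPM (-0.28, and -0.07 with TMM) and mt-nd6, the mRNA on the other strand and below the minimum of 50 CPM, 29.2, 14.6 and 14.2 CPM (-1.02). Most complex I mRNAs were thus above gControl in both repeats and mt-nd5, mt-nd6 and mt-nd4l were below it.

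**Figure D5:**
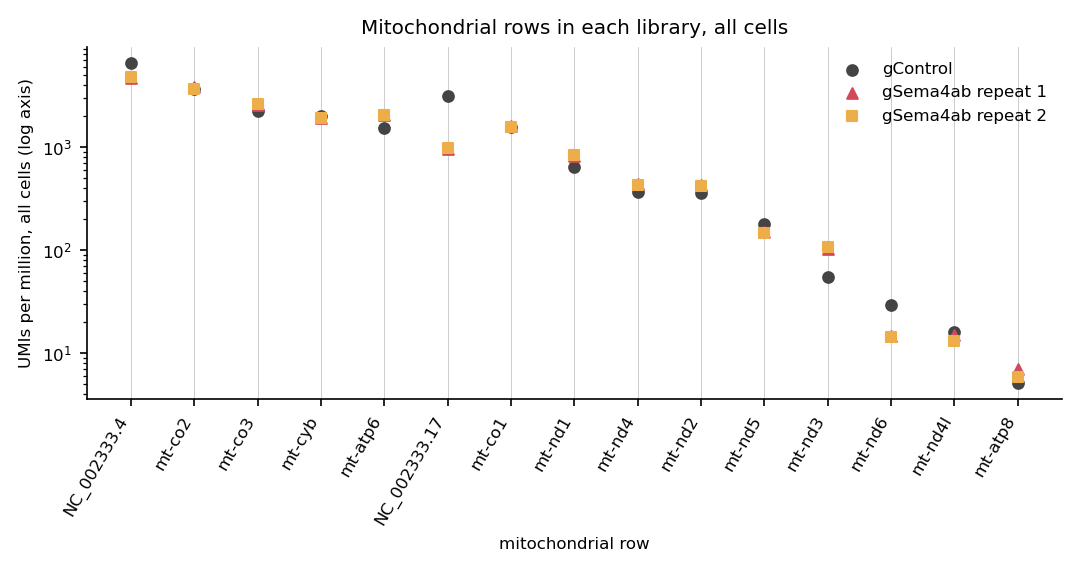
Level of each of the 13 mitochondrial mRNAs and of the 2 abundant NC_002333 rows over all cells in CPM, on a log axis, in gControl and both gSema4ab repeats. NC_002333.17 lies furthest from gControl, at 966 and 975 CPM against 3102 CPM, and mt-nd3 has 102 and 108 CPM against 54.7 CPM.

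mt-nd3 was called higher in 18 of the 20 classes where it was tested, and mt-nd5 was lower in both repeats in 20 of 22 classes, the one class with both above being superficial epidermis. Over the 22 classes, the share of all genes called higher ran from 1.57% in myoblasts to 23.2% in superficial epidermis. The share of all genes below gControl in both repeats is not given by class, so the count for mt-nd5 has no background beside it. The median log2 ratio of all tested genes ran from -0.17 to 0.16 over the classes. All classes come from the same 3 libraries, so such counts of classes are not independent. The mRNA sum was above gControl in both repeats in 13 of 22 classes and below it in 4, which under TMM became 20 and 1. The ratio of nuclear UMIs to mitochondrial mRNA UMIs was 1.28 in gControl and 1.40 and 1.38 in the repeats over all cells. By class it was higher in both repeats in 16 of 22, mixed in 3 and lower in both in 3: superficial epidermis with 0.785 in gControl and 0.557 and 0.576 in the repeats, macrophages and microglia with 2.82, 2.64 and 2.65, and skeletal muscle with 1.46, 1.32 and 1.29.

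Superficial epidermis had the highest ratio of the mitochondrial mRNAs among the classes. Their sum had a log2 ratio of 0.82 there (0.66 with TMM), and 9 of the 10 tested mRNAs were called higher. mt-atp6 had 1332, 3643 and 3600 CPM (1.44) and mt-nd1 673, 1817 and 1837 CPM (1.44). mt-co1 had 2055, 2836 and 2759 CPM (0.45) and was the one under the limit. In this class 23.2% of all genes were called higher. The class held 2 clusters in different proportions. One, led by irg1l, had 5.12%, 6.45% and 6.21% mitochondrial UMIs and 447, 564 and 514 cells. The other, led by icn2 and krt17, had 2.16%, 2.21% and 2.39% and 756, 341 and 347 cells. Within them the mRNA sum had log2 ratios of 0.60 and 0.41, smaller than in the class as a whole, and NC_002333.17 stayed lower at -1.43 and -1.53.

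Genes around the respiratory chain were read from 5 fixed lists. Cytochrome c, carriers and channels of the inner and outer membrane were ordered like the nuclear genes, with 2.34% of UMIs in ionocytes, 1.45% in slow muscle, 0.839% in skeletal muscle and a median of 0.473%. The ATP/ADP carrier gene slc25a5 led this list with 2806, 3023 and 3011 CPM over all cells and 16325 CPM in ionocytes, and the uncoupling protein gene ucp2 was highest in xanthophores at 3077 CPM. Assembly factors of complexes III and IV took 0.115% in ionocytes, with the copper chaperone gene cox17 and cox14 as the most abundant. Of the transcription and biogenesis genes, ppargc1b, a coactivator, reached 529 CPM in ionocytes. The citrate cycle genes took 0.492% in ionocytes, 0.365% in slow muscle and 0.267% in macrophages and microglia. suclg1, a succinyl-CoA ligase subunit gene, was highest in macrophages and microglia at 976 CPM.

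Glycolysis was ordered in another way, with slow muscle first at 0.797%, skeletal muscle at 0.698% and neutrophils at 0.683%, and a median of 0.145%. The glyceraldehyde phosphate dehydrogenase gene gapdhs was highest in neutrophils at 1899 CPM. Against gControl, 0 of 9 tested carrier and channel genes, 1 of 2 assembly genes (cox14 with 41.1, 58.9 and 61.8 CPM), 0 of 2 transcription genes, 0 of 11 citrate cycle genes and 0 of 15 glycolysis genes were called higher over all cells, and 0 were called lower, beside the 3.12% and 9.27% of all genes. With 2 to 15 tested genes in a list, the counts of 0 were near that background and the 1 called gene rests on a list of 2. As sums, the carrier and channel list was higher in both repeats in 20 of 22 classes, the assembly list in 22, and glycolysis in 18. The citrate cycle was higher in both in 9 classes and lower in both in 9, and transcription and biogenesis was higher in both in 9 and lower in both in 11.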

How the data were processed

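The authors sorted viable cells, prepared libraries with 10x Genomics v3 chemistry and counted UMIs with Cell Ranger 7.1.0 on GRCz11 (Ensembl 109). The deposited matrices hold whole-number UMI counts per gene and barcode, and no cell labels were used. Barcodes were kept with at least 200 genes, 500 to 50000 UMIs, at most 20 UMIs per gene and under 20% mitochondrial UMIs (taken here over mt- symbols), which left out 248, 409 and 374 barcodes through the last criterion. The top Scrublet scores (scanpy 1.11.5, Python 3.11.15), a share that grew with the number of barcodes, were removed as presumed doublets (1594, 1571 and 1526). Cells were integrated by canonical correlation and clustered in Seurat 5.3.0 (R 4.3.3; 2000 variable genes, 30 components, resolution 1), and the members and list genes were left out of the variable genes. A cluster was named where at least 3 markers were in at least 10% of cells and at least 3-fold higher than elsewhere. Clusters under 50 cells stayed unnamed. So did clusters without a marker among their 10 leading genes in either of these cases. In one, another class had nearly as many markers. In the other, the median UMIs per cell lay below the median of all cells divided by 3. The naming threshold was set after the first clusters had been seen.

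UMIs were summed per library and class. Counts carried Poisson intervals, shares binomial ones and ratios conditional binomial ones from the pooled repeats, all exact. For single-gene ratios 0.5 UMI was added. A gene was called at a log2 ratio past 0.5 in both repeats, with a mean of at least 50 CPM and 20 UMIs. A count of 0 allowed 3 UMIs. The scripts were tested on simulated data. TMM factors came from edgeR 4.0.16. No test was run, since the gSema4ab libraries are technical repeats and 1 sample stands for each condition.

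Genes named were all mitochondrial mRNAs, other mitochondrial rows with at least 20 UMIs in every library, the 3 most abundant nuclear genes of each complex, the 12 with the largest fold between classes with their related genes, and the 3 largest ratios per direction in all cells and in classes of at least 1000000 UMIs per library. The members and lists were chosen with earlier results of these data known. The alternatives are given in the closing section. No sequences are shown.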

Additional observations from a re-analysis of the deposited data

Results flagged for a closer look

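In 6 cases a sum moved in the opposite direction to most classes in both gSema4ab repeats. The differences between classes were not tested, since each condition was 1 sample. The mitochondrial sum was lower in both repeats in 19 classes, but higher in both in superficial epidermis, with a log2 ratio of 0.51, and in skeletal muscle, with a ratio of 0.014. The clusters of superficial epidermis, whose cell numbers differed between libraries, had ratios of 0.31 and 0.09, both below that of the class. Under the 15 alternatives superficial epidermis stayed at 0.31 to 0.82, whereas skeletal muscle was below 0 in 5 of them and ran from -0.37 to 0.35. The sum of the 13 mitochondrial mRNAs was higher in both repeats in 13 classes, but lower in both in the enteric nervous system (-0.064), in myoblasts (-0.18), in red blood cells (-0.19) and in the notochord (-0.38). The red blood cell clusters also differed in cell numbers between libraries. The one with a median of 9409 UMIs had 79, 221 and 227 cells. The mRNA sum was not lower in both repeats there, but it was in the other named red blood cell clusters. Scaled by UMIs without globins, 4 classes were lower in both repeats for the mRNA sum. With TMM scaling 1 class was.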

How the results depend on the processing

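For the mitochondrial sum over all cells (log2 ratio -0.19), the ratio was 0.023 with TMM, -0.194 on non-mitochondrial UMIs, -0.16 without globins, -0.22 under a 10% filter, -0.11 with no mitochondrial filter, -0.21 with doublets kept, -0.188 without cells of mixed markers and 0.13 on mt- symbols alone. In alternatives added after the data were seen, it was -0.18 with the filter on all mitochondrial symbols and 0.13 without NC_002333.4 and NC_002333.17. The nuclear ratio (0.25) was 0.46 with TMM and 0.28 without globins. The 9 nuclear genes called higher became 1 at a limit of 1, 3 at a minimum of 200 CPM and 21 with TMM. Of these alternatives, calls over all genes are given above for TMM only. The other counts, and those with a repeat left out, have no background beside them. For ionocytes, the mitochondrial share (9.28%) was 6.57% on mt- symbols alone, 6.76% under a 10% filter and 14.0% with no filter, and the nuclear share (8.21%) was 6.48% and 10.1% in the single clusters (added after the data were seen). The fold between classes (7.44 mitochondrial) was 15.5 by the median over cells, 5.54 under a 10% filter and 11.2 with no filter. For the nuclear sum (11.1) it was 13.1 by the median over cells, 12.05 on non-mitochondrial UMIs, 12.1 also without globins, 9.48 with no filter and 9.39 with doublets kept. The cause of these moves was not tested. Leaving out each repeat gave -0.192 to -0.189, 0.24 to 0.26, 10 and 10 genes, 9.31% to 9.82%, 7.82% to 7.84%, 6.83 to 7.70 and 10.8 to 11.01, in the same order. The number of nuclear genes highest in ionocytes ran from 74 to 80. Of 2118 further values, for single genes and classes, 1616 stayed within their spread and 502 moved, and the nuclear sum kept its sign in every class under every setting.

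No paired analysis was possible because each condition was 1 sample. With 1 pool per condition, differences between larvae, pools and capture runs cannot be told apart from the treatment, and the repeats show technical spread only. Small classes limit single genes: oligodendrocytes had 1169668 UMIs and tenocytes 981543. Fewer mitochondria and fewer transcripts per mitochondrion cannot be told apart, and free RNA was not subtracted.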
